A study of Mus musculus with 24 samples.

Results

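Ninj1 lies on mouse chromosome 13, and the genes that surround it were measured in bone marrow-derived macrophages labelled Ninj1 knockout and in wild-type ones. The members are 218 protein-coding genes of GENCODE release M21 that start within 40 Mb of the Ninj1 start (build GRCm38, chr13:49187485-49196244, plus strand) and average 50 or more counted reads over 24 libraries. Of 610 protein-coding genes in that window, 256 reached the count minimum, and 38 of those were left out by symbol: Ninj1 itself, 6 other named genes and several large families such as solute carriers, histones and subunits of the respiratory chain. A further 277 genes stayed below the minimum after the symbol exclusions. Among all 52636 gene models of the series, 9767 pass the same conditions on type, name and count, 106 of them on chromosome 13 beyond 40 Mb and 9443 on other chromosomes. The members were thus chosen by position, type and symbol, and selected on their mean count. The mean count ran over members from 50.1 (Mak) to 56191 (Syk), with a median of 1064. Just inside the minimum stood Mak at 50.1 and Ptpdc1 at 54.4, and just outside it Cep72 at 48.7 and Serpinb1c at 47.6. On the low-coordinate side of Ninj1 lie 105 members and on the high-coordinate side 113. All 218 passed the filter on low counts and were tested.

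The libraries hold polyA RNA of primary macrophages grown from bone marrow, 6 for each of 4 groups. KO_Pam3 cells were Ninj1 knockout and stimulated with Pam3, a synthetic lipopeptide that activates Toll-like receptor 2. KO_media cells were Ninj1 knockout in media only. WT_Pam3 and WT_media cells came from wild-type C57BL/6 mice, with the same 2 treatments. The labels do not state the dose, the time, mouse age, the knockout allele, the strain in which it was made, any backcrossing, or whether each library stands for 1 animal. P-values therefore measure the spread between these libraries, which may be technical. Each title holds a sample identifier, and the levels of a few genes separated the 3 lower from the 3 upper identifiers within a group, so libraries may share a source, which would make these p-values too small. What the identifiers mark is not stated. Counts summed over the 3 lower and over the 3 upper identifiers, 2 sums for each group, were tested as an alternative chosen after seeing the data.

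When a gene is inactivated in embryonic stem cells of one strain and the allele is crossed into another, the DNA on both sides of the target stays linked to it until recombination separates them. Such flanking passenger segments can carry variants of the donor strain that change the level or the sequence of neighbouring transcripts. A comparison of knockout and wild-type cells by distance from the target asks whether genotype differences gather near it. NINJ1 itself is a plasma membrane protein that mediates membrane rupture in lytic cell death.

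Gpr137b is a member by its position, type and count, and the rule that chose the members also names it. Earlier results of these data had singled it out, so its genotype difference is given here as a description. It encodes a lysosomal membrane protein. The copy Gpr137b-ps, annotated as a transcribed unprocessed pseudogene, lies at chr13:12615057-12650388, and Gpr137b at chr13:13357620-13394014, both on the minus strand of GRCm38. Because reads of 50 bases were counted only where they aligned uniquely, the places where the copies differ decide which of them a read was assigned to. The 1155 coding bases of Gpr137b align to Gpr137b-ps with 5 substitutions, an identity of 99.6%, and with 1 extra base in the copy after position 102. Positions are counted from 1 at the first base of the start codon, and each token gives the Gpr137b base first. The extra base and differences outside the coding sequence also tell the copies apart and are not shown. The following stretches of the GENCODE M21 transcripts hold the 5 coding substitutions, with the substituted base in capitals.
Gpr137b at C621G, chr13:13367590-13367630: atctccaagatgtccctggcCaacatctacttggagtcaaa
Gpr137b-ps at C621G: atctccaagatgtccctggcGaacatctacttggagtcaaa
Gpr137b at A697G, chr13:13365121-13365161: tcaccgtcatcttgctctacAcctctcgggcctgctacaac
Gpr137b-ps at A697G: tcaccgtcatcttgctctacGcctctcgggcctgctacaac
Gpr137b at C819T, chr13:13363526-13363566: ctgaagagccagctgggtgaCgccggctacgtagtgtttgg
Gpr137b-ps at C819T: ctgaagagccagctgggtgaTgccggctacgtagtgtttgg
Gpr137b at C894T, chr13:13363451-13363491: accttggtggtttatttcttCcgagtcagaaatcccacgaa
Gpr137b-ps at C894T: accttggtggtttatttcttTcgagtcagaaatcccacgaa
Gpr137b at A1064G, across an exon junction: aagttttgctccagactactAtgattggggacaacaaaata
Gpr137b-ps at A1064G: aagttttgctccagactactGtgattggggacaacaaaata

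Of the 1106 stretches of 50 bases in the Gpr137b coding sequence, 808 (73.1%) also stand in Gpr137b-ps, and over all its transcripts the share is 28.3%. Reads from those stretches align to both copies and are absent from unique counts, so the levels of both genes are uncertain. Reads themselves were not analysed here.

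Libraries held 34207856 to 40253270 counted reads in KO_Pam3, 33184815 to 37216042 in KO_media, 32762126 to 37317923 in WT_Pam3 and 31302011 to 40663152 in WT_media. Ninj1 RNA checked the labels: it lay between 151 and 179 CPM (counts scaled to library size) in KO_media against 289 to 325 CPM in WT_media, and between 409 and 479 CPM in KO_Pam3 against 646 to 1145 CPM in WT_Pam3. It was thus lower but still present in KO, with log2 fold changes of -0.88 (SE 0.0874, adjusted p = 7.33e-07) and -0.92 (SE 0.0872, adjusted p = 4.05e-07), and counts over a whole gene model do not show whether the protein is made. In many genes WT_Pam3 replicate 5 lay far from the other WT_Pam3 libraries, and results that rest on it are given with and without it. Summed over 6 macrophage markers the level was 25810 to 26511 CPM in KO_media against 25331 to 27016 CPM in WT_media, with 0 of 6 passing the test in media. After Pam3 it was 28516 to 29926 CPM in KO_Pam3 against 30421 to 34062 CPM in WT_Pam3, without overlap, with 1 of 6 higher and 2 lower. Granulocyte markers summed to 81.6 to 94.2 CPM in KO_media against 59.7 to 70.8 CPM in WT_media, with 4 of 7 markers higher by the test, and stromal markers to 50.1 to 91.7 CPM against 36.9 to 46.7 CPM, with 5 of 6 higher. After Pam3 the granulocyte sums were 48.7 to 56.9 CPM in KO_Pam3 and 39.1 to 62.2 CPM in WT_Pam3, with 2 of 7 higher, and the stromal sums 41.8 to 67.0 CPM and 29.0 to 42.7 CPM, with 3 of 6 higher. Xist was present and the Y-linked genes were at or near 0 in all 24 libraries, although WT libraries are labelled male. For KO libraries the labels give no sex.

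In media, the members differed little between genotypes. At an adjusted p under 0.05, 6 members were higher and 1 was lower in KO_media than in WT_media, 7 of 218 or 3.21%. Over all 14435 tested genes the share was 3.03% (1.92% higher and 1.12% lower), and over the genes of all chromosomes that pass the same conditions it was 3.60%. Without Gpr137b, 6 of 217 members (2.76%) passed. With scaling to library size only, the split was 8 higher and 0 lower. At an unadjusted p under 0.05 there were 32 members (14.7%), beside 1872 of 14435 tested genes and 13.5% of genes under the same conditions genome-wide. With counts summed by identifier, 5 members (2.29%) passed, beside 1.56% of all genes tested there. They were Gpr141, Sox4, Jarid2, Tgfbi and Gpr137b, which the rule names. The median log2 fold change over members was -0.00, as over all tested genes, and the median of its absolute value was 0.052 over members against 0.067 over all tested genes.

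After Pam3, 4 members were higher and 6 lower in KO_Pam3 than in WT_Pam3, 10 of 218 or 4.59%, beside 4.06% of all tested genes (1.31% higher and 2.75% lower) and 5.15% of genes passing the same conditions genome-wide. Without Gpr137b, 9 of 217 (4.15%) passed. Scaling to library size only gave a split of 8 higher and 2 lower among 10 members. At an unadjusted p under 0.05 there were 46 (21.1%), beside 16.3% of all tested genes and 19.3% under the same conditions genome-wide. No member passed with a 2-fold difference between genotypes in either comparison. The shares of members were thus close to the background in both treatments. The calls of the 9 other than Gpr137b ended in 2 further fits, as given for each below. These were KO_Pam3 and WT_Pam3 fitted alone, and counts summed by identifier. They left only Gpr137b (0.459% of members), beside 1.36% and 0.704% of all genes tested there. That is no independent result for Gpr137b, since earlier results of these data had singled it out.

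These counts depended on WT_Pam3 replicate 5. Without it, 24 members (11.0%) passed in media, 16 higher and 8 lower, beside 8.75% of all tested genes, and 21 (9.63%) after Pam3, 8 higher and 13 lower, beside 8.09%. The 7 and 10 members found with all libraries were among them. After Pam3 the count was also 4 without KO_Pam3 replicate 3, 5 without KO_Pam3 replicate 2 or 4 or WT_Pam3 replicate 2, and 6 without KO_Pam3 replicate 5.

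By the spread between these libraries, most differences were bounded to small sizes. If libraries share a source, the SEs are too small and the bounds too narrow. For 211 of 218 members in media and 207 after Pam3, the log2 fold change plus or minus 2 SE stayed inside a 1.5-fold change in either direction. Within 5 Mb of Ninj1 this held for 33 of 33 members in media and 31 of 33 after Pam3. For the 10 members within 1 Mb it held in both comparisons, where the log2 fold changes ran from -0.08 to 0.14 in media and from -0.22 to 0.17 after Pam3.

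**Figure D1:**
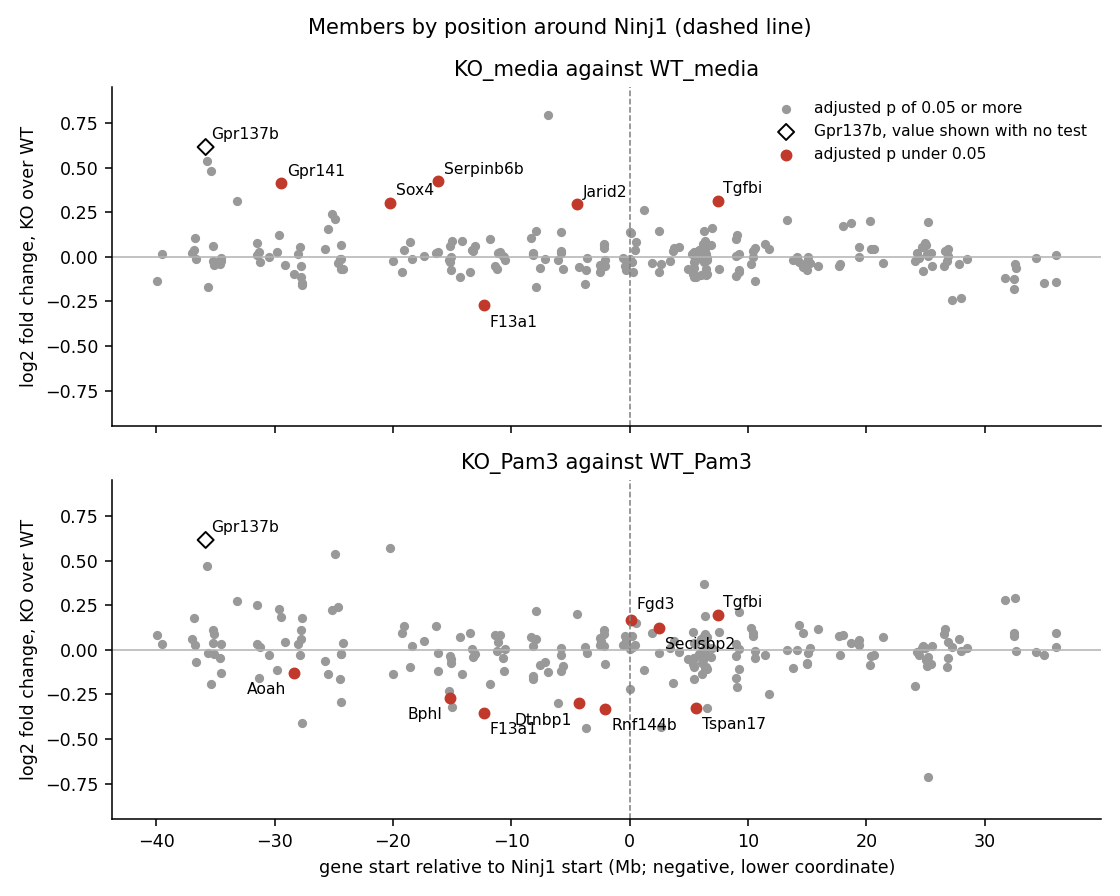
Log2 fold change of KO over WT (y axis) against the position of each gene's start relative to the Ninj1 start in Mb (x axis, negative for lower coordinates), for 218 members in media (upper panel) and after Pam3 (lower panel). Red points passed the test (adjusted p under 0.05), grey ones did not, and the open diamond is Gpr137b at 0.62 in both panels. The red points reach from Gpr141, 29.44 Mb away on the low-coordinate side, to Tgfbi, 7.42 Mb away on the high-coordinate side.

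By distance, the count of members passing the test in media was 1 of 33 within 5 Mb (Jarid2), 1 of 53 from 5 to 10 Mb (Tgfbi), 2 of 53 from 10 to 20 Mb (Serpinb6b and F13a1), 2 of 47 from 20 to 30 Mb (Gpr141 and Sox4) and, beside Gpr137b, 0 of the other 31 from 30 to 40 Mb. After Pam3 it was 4 of 33 within 5 Mb, or 12.1%, formed by Fgd3 and Secisbp2, which were higher, and Rnf144b and Dtnbp1, which were lower. Farther out there were 2 of 53 (Tgfbi and Tspan17), 2 of 53 (F13a1 and Bphl), 1 of 47 (Aoah) and again Gpr137b with 0 of the other 31. On chromosome 13 beyond 40 Mb, 3 of 106 genes (2.83%) passed in each comparison. With all libraries, the share within 5 Mb after Pam3 was the highest of the 10 and rests on 4 genes.

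The median absolute log2 fold change by distance was 0.060, 0.069, 0.040, 0.051 and 0.042 in media from the nearest to the farthest members. After Pam3 it was 0.079, 0.082, 0.075, 0.063 and 0.071. Spearman's rho between distance and absolute log2 fold change was 0.01 in media and -0.00 after Pam3 over 218 members, which share the same libraries. Without WT_Pam3 replicate 5, the members passing in media from the nearest to the farthest distance were 7 of 33 (21.2%), 4 of 53 (7.55%), 2 of 53 (3.77%), 5 of 47 (10.6%) and 6 of 32 (18.8%), beside 8.75% of all tested genes. After Pam3 they were 4 of 33 (12.1%), 8 of 53 (15.1%), 3 of 53 (5.66%), 4 of 47 (8.51%) and 2 of 32 (6.25%), beside 8.09%. The share within 5 Mb was then the highest in media, while after Pam3 that from 5 to 10 Mb was above it. Averaged over both treatments, with all libraries, 4 of 33 (12.1%), 3 of 53 (5.66%), 1 of 53 (1.89%), 4 of 47 (8.51%) and 2 of 32 (6.25%) passed, beside 4.97% of all tested genes. By the same conditions on type, name and count, chromosome 13 as a whole had 3.09% of its 324 genes passing in media and 4.01% after Pam3, each the sixth lowest among 20 chromosomes. Chromosome X was lowest at 0.987% and 2.30%, and chromosome 1 highest at 4.40% and 8.63%.

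**Figure D2:**
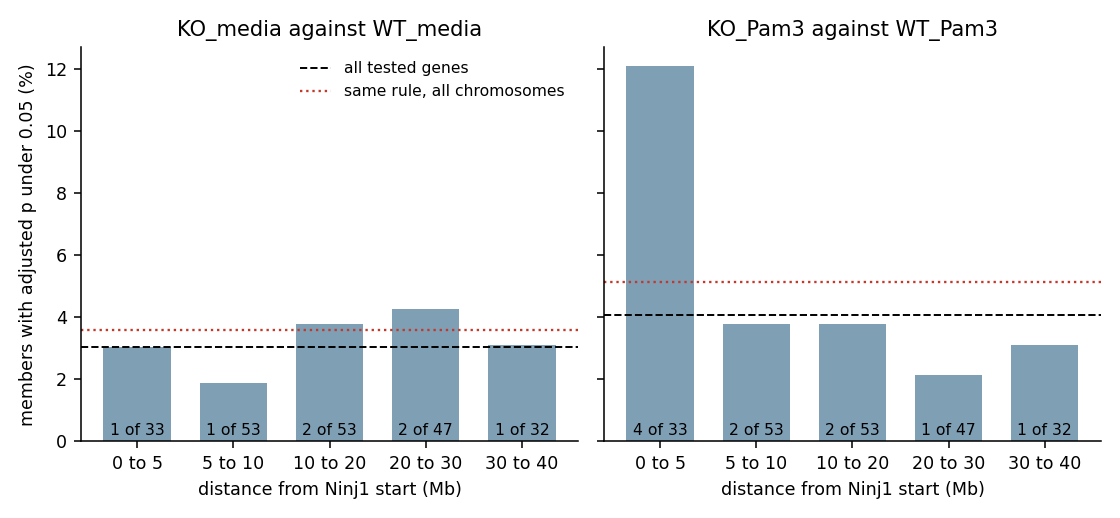
Percent of members that passed the test (y axis) by distance from the Ninj1 start in Mb (x axis), in media (left) and after Pam3 (right), with the number passing of the number in each bar, Gpr137b included. Dashed lines mark all tested genes (3.03% and 4.06%) and dotted lines the genes of all chromosomes under the same conditions (3.60% and 5.15%). The 4 of 33 members within 5 Mb after Pam3 stand above both lines.

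The 3 members next to Ninj1 on each side showed small differences. On the low-coordinate side they are Fam120a, an RNA-binding scaffold protein, Phf2, a histone demethylase, and Ptpdc1, a protein phosphatase. Their KO over WT log2 fold changes in media were -0.07 (SE 0.0731, adjusted p = 0.787) for Fam120a, -0.05 (SE 0.0699, adjusted p = 0.857) for Phf2 and -0.00 (SE 0.105, not passing) for Ptpdc1. After Pam3 they were 0.05 (SE 0.0734), 0.08 (SE 0.0711) and 0.03 (SE 0.151), with adjusted p of 0.780, 0.627 and 0.957. Without WT_Pam3 replicate 5 the difference of Fam120a in media passed just under the threshold, and after Pam3 it was -0.04.

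On the high-coordinate side the nearest members are Card19, Susd3 and Fgd3. Card19 encodes a protein with a caspase recruitment domain and starts 0.02 Mb from the Ninj1 start, at chr13:49202950-49216037. It had 73.7, 77.6 and 85.5 CPM (lowest, median, highest) in KO_Pam3 against 73.4, 90.4 and 116 CPM in WT_Pam3. The groups overlapped, with a log2 fold change of -0.22 (SE 0.0694, adjusted p = 0.0743). Leaving out KO_Pam3 replicate 6, WT_Pam3 replicate 1 or WT_Pam3 replicate 6 brought that p to between 0.00990 and 0.0499. In the other 21 such fits Card19 did not pass, among them that without WT_Pam3 replicate 5, its highest library. Over all 24 fits the log2 fold change ran from -0.28 to -0.14. By the DESeq2 Wald test on all libraries the adjusted p of Card19 after Pam3 was 0.0371. In media Card19 differed by -0.01 (SE 0.0688, adjusted p = 0.969).

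Susd3, which encodes a sushi domain membrane protein, stood at 89.1, 97.3 and 101 CPM in KO_media (lowest, median, highest) and 84.0, 86.5 and 90.4 CPM in WT_media. In 5 of 6 KO_media libraries it was above every WT_media library, yet the log2 fold change of 0.14 (SE 0.0414) had an adjusted p of 0.0636. That p became 0.00290 without WT_Pam3 replicate 5 and 0.0423 without KO_media replicate 6. With all libraries it was 0.00594 by the DESeq2 Wald test. With edgeR it was 0.00877 with the 2 media groups fitted alone and 0.0471 with scaling to library size only. After Pam3 its genotype difference was 0.01 (SE 0.0994, adjusted p = 0.988).

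Fgd3, an exchange factor for the small GTPase CDC42 at chr13:49261554-49320311, was the member closest to Ninj1 that passed a genotype test. Its level was 89.1, 99.2 and 103 CPM in KO_Pam3 against 83.7, 87.2 and 88.7 CPM in WT_Pam3, and all 6 KO_Pam3 libraries lay above all WT_Pam3 ones. The difference of 0.17 on the log2 scale (SE 0.0421) had an adjusted p of 0.0215. In media it was 0.14 (SE 0.0417, adjusted p = 0.0807), with 5 of 6 KO_media libraries above every WT_media one. The adjusted p in media was 0.0339 by the DESeq2 Wald test and 0.0306 by edgeR with the 2 media groups fitted alone. Leaving out KO_Pam3 replicate 3, 4 or 5 or WT_Pam3 replicate 2 ended the call after Pam3 at an adjusted p of 0.0551 to 0.0690, as did fitting the 2 Pam3 groups alone (0.0641) and summing counts by identifier (0.160), while leaving out KO_media replicate 1 or WT_Pam3 replicate 5 made one in media at 0.0196 to 0.0252.

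Of the list of 14 genes next to Ninj1, 11 are members. None of them passed in media and Fgd3 alone passed after Pam3, with median log2 fold changes of -0.01 and 0.05 beside -0.00 and -0.01 over all tested genes.

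Besides Gpr137b, Tgfbi and F13a1 passed in both genotype comparisons with the same sign, so that the count was 3 of 218 (1.38%) beside 0.686% of all tested genes. The 2 comparisons share no library, but both come from 1 fit of all 24 libraries with a shared estimate of the spread. Whether media and Pam3 libraries share a source is not stated. The 2 calls of a gene are thus not independent results. Among genes passing the same conditions genome-wide the share was 0.850%. Without Gpr137b it was 2 of 217 members (0.922%), 1 higher and 1 lower. The count was 1 without KO_Pam3 replicate 1, 3, 4 or 6 or WT_Pam3 replicate 1 or 2, and 5 without WT_Pam3 replicate 5.

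Tgfbi, an extracellular matrix protein induced by transforming growth factor beta, lies 7.42 Mb from Ninj1 at chr13:56609523-56639562. Its level was 169, 197 and 214 CPM in KO_media (lowest, median, highest) against 144, 156 and 168 CPM in WT_media, and 122, 132 and 141 CPM in KO_Pam3 against 104, 113 and 128 CPM in WT_Pam3. Every KO_media library lay above every WT_media one, while after Pam3 the groups overlapped and 5 of 6 KO_Pam3 libraries were above all of WT_Pam3. In media this was a log2 fold change of 0.32 (SE 0.0542) with an adjusted p of 0.00112. The difference after Pam3 was 0.20 (SE 0.0547), at an adjusted p of 0.0373. The call after Pam3 was lost when any 1 of KO_Pam3 replicates 1, 2, 3, 4 and 6 or WT_Pam3 replicates 1, 2, 3 and 4 was left out, at an adjusted p of 0.0520 to 0.103. It was also lost with the 2 Pam3 groups fitted alone (0.0817) and with counts summed by identifier (0.230), where the call in media was kept at 0.0441. Stromal markers were higher in the same libraries, as given above, and their part in the difference was not tested. In bulk RNA, a change in the number of cells of a type cannot be told apart from a change in RNA per cell.

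F13a1, the catalytic A chain of coagulation factor XIII and a transcript of macrophages, lies 12.32 Mb away at chr13:36867178-37050244. It had 78.1, 82.4 and 85.7 CPM in KO_media against 89.4, 98.8 and 110 CPM in WT_media, without overlap. In KO_Pam3 it had 27.6, 29.5 and 32.8 CPM and in WT_Pam3 26.6, 39.97 and 43.0 CPM, where replicate 5 was the lowest of WT_Pam3 and overlapped the KO_Pam3 range. In media this was a log2 fold change of -0.27 (SE 0.0754) with an adjusted p of 0.0466. The difference after Pam3 was -0.35 (SE 0.0795), at an adjusted p of 0.00923. Without WT_Pam3 replicate 5 the values were -0.27 (adjusted p = 0.000136) and -0.44 (adjusted p = 1.19e-06). The call in media was kept in 4 of the 24 fits that left out 1 library each, those without KO_Pam3 replicate 2 or WT_Pam3 replicates 3, 4 or 5, and its adjusted p was 0.0508 to 0.136 in the other 20. It was also lost with scaling to library size only (0.0505) and with counts summed by identifier (0.114). The call after Pam3 was lost with the 2 Pam3 groups fitted alone (0.108) and with counts summed by identifier (0.0685). Macrophage marker sums were lower in KO_Pam3 than in WT_Pam3, as given above, and their part in the difference was not tested.

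**Figure D3:**
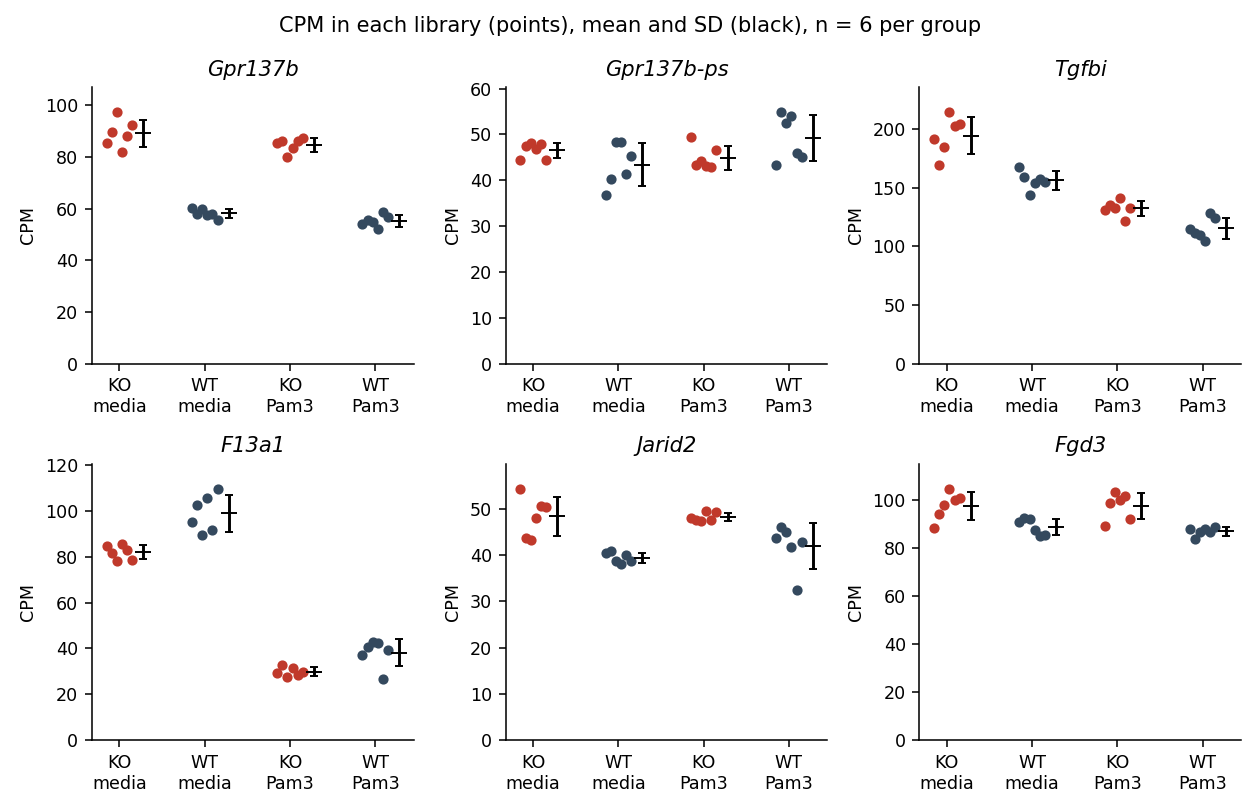
CPM (y axis, from 0) of 6 genes in each library of KO_media, WT_media, KO_Pam3 and WT_Pam3 (x axis). Points are libraries, red for KO and dark blue for WT, and black marks are the mean and SD of 6. Gpr137b lies at 79.8 CPM or more in KO libraries and at 60.3 CPM or less in WT libraries, while Gpr137b-ps overlaps between genotypes.

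Gpr137b, 35.83 Mb from Ninj1, had 81.8, 88.8 and 97.2 CPM in KO_media against 55.4, 57.8 and 60.3 CPM in WT_media, and 79.8, 85.7 and 87.4 CPM in KO_Pam3 against 51.9, 55.1 and 58.8 CPM in WT_Pam3. All KO libraries lay above all WT libraries in both treatments. The log2 fold change was 0.62 in media (SE 0.0397) and 0.62 after Pam3 (SE 0.0402), and leaving out any 1 library kept it between 0.59 and 0.64 in media and between 0.60 and 0.63 after Pam3. Pam3 itself changed it by -0.07 in KO (SE 0.0396, adjusted p = 0.0903) and by -0.07 in WT (SE 0.0402, adjusted p = 0.0926).

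Gpr137b-ps showed no such separation. It stood at 44.5 to 48.2 CPM in KO_media against 36.9 to 48.3 CPM in WT_media, and at 42.9 to 49.4 CPM in KO_Pam3 against 43.4 to 54.8 CPM in WT_Pam3. The KO over WT log2 fold changes were 0.10 (SE 0.0643, adjusted p = 0.577) and -0.13 (SE 0.0652, adjusted p = 0.310). Summed over both copies, the level was 129 to 145 CPM in KO_media against 97.2 to 108 CPM in WT_media, and 124 to 135 CPM in KO_Pam3 against 97.3 to 110 CPM in WT_Pam3. The sums did not overlap between genotypes in either treatment.

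With all libraries, the 14 other members within 2 Mb of Gpr137b held no gene that passed either genotype test. Their log2 fold changes ran from -0.17 to 0.53 in media and from -0.19 to 0.47 after Pam3. The upper ends belonged to Nid1, a basement membrane protein that starts 0.08 Mb from Gpr137b, at a low level of 1.79, 2.29 and 3.76 CPM in KO_media against 1.36, 1.74 and 2.18 CPM in WT_media. For Nid1 the adjusted p was 0.135 in media and 0.307 after Pam3, and the mean over both treatments was 0.50 (SE 0.146, adjusted p = 0.0444). When WT_Pam3 replicate 5 was left out, 3 of the 14 passed in media: Nid1 (0.53, adjusted p = 0.0347), Lyst, a regulator of lysosome size (-0.17, adjusted p = 0.0272), and Lgals8, a galectin (0.10, adjusted p = 0.0436). Lyst was then the 1 of the 14 that passed after Pam3 (-0.17, adjusted p = 0.0435). In that fit, 8.75% of all tested genes passed in media and 8.09% after Pam3.

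Among members with roles in chromatin and transcription, 25 of 31 listed genes were measured, of which 2 were higher in KO_media and none passed after Pam3. Jarid2, a partner of the Polycomb repressive complex that lies 4.46 Mb from Ninj1 at chr13:44729474-44921643, had 43.3, 49.1 and 54.3 CPM in KO_media against 38.0, 39.3 and 40.8 CPM in WT_media. Its log2 fold change was 0.29 (SE 0.0614, adjusted p = 0.00627). After Pam3 it was at 47.4, 47.8 and 49.4 CPM in KO_Pam3 against 32.5, 43.3 and 45.9 CPM in WT_Pam3, again without overlap, with 0.20 (SE 0.0623, adjusted p = 0.0704). Leaving out KO_media replicate 1, 2 or 3 brought that p to 0.0378 to 0.0457. For Jarid2 after Pam3 it was also 0.0363 by the DESeq2 Wald test and 0.0188 with scaling to library size only. Without WT_Pam3 replicate 5, its lowest WT_Pam3 library, the difference after Pam3 was 0.14 (adjusted p = 0.0504). Beside Gpr137b, Jarid2 was the only member of the 218 whose groups were apart in both treatments with the same sign. The share of all tested genes apart in both treatments was not counted, so whether this is unusual is not known. In all, the groups of 11 members did not overlap in media (5.05%), 7 higher and 4 lower, beside 4.27% of all tested genes (2.16% higher and 2.11% lower). The same held after Pam3 for 9 members (4.13%), 5 higher and 4 lower, beside 2.53% (0.894% higher and 1.63% lower). Among genes under the same conditions genome-wide the shares were 5.43% in media and 3.19% after Pam3.

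Sox4, a transcription factor of progenitor cells, had 25.1, 26.7 and 29.0 CPM in KO_media against 19.99, 20.7 and 24.9 CPM in WT_media, without overlap (log2 fold change 0.30, SE 0.0682, adjusted p = 0.0125). After Pam3 it was at or below 0.670 CPM in every library, and the difference of 0.57 (SE 0.228) did not pass (adjusted p = 0.182). Of its stretches of 50 bases, 54.1% are shared with the overlapping gene Gm26735 on the other strand, and the kit does not mark strand.

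Of the list of myeloid and innate immunity genes, 25 of 32 were members, and Tgfbi, F13a1 and Serpinb6b passed in media. Serpinb6b, an intracellular inhibitor of serine proteases, had 6.67, 7.03 and 8.66 CPM in KO_media against 4.90, 5.43 and 6.00 CPM in WT_media, without overlap, for a log2 fold change of 0.42 (SE 0.0981, adjusted p = 0.0154). With counts summed by identifier its adjusted p was 0.0729. After Pam3 it was below 1 CPM in every library, with -0.12 (SE 0.236, adjusted p = 0.855). The list's median log2 fold change was 0.07 in media and -0.02 after Pam3, beside -0.00 and -0.01 over all tested genes.

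Gpr141, an orphan G protein-coupled receptor in none of the role lists, had 7.10, 8.78 and 10.9 CPM in KO_media against 5.60, 6.58 and 7.82 CPM in WT_media. The groups overlapped (log2 fold change 0.41, SE 0.114, adjusted p = 0.0466). Its call was lost in 17 of the 24 fits that left out 1 library each (adjusted p 0.0503 to 0.149), and kept without KO_Pam3 replicates 2 or 3, KO_media replicates 2 or 3, WT_Pam3 replicates 1 or 5, or WT_media replicate 4. With DESeq2 size factors its adjusted p was 0.0511, and with counts summed by identifier 0.0155.

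Several members differed only after Pam3 by the test, and with all libraries the treatments were not shown to differ for any of them but Secisbp2. Rnf144b, a RING-type ubiquitin ligase 2.06 Mb from Ninj1, had 3.43, 3.75 and 4.11 CPM in KO_Pam3 against 4.17, 4.71 and 5.19 CPM in WT_Pam3. Those groups did not overlap (log2 fold change -0.33, SE 0.0606, adjusted p = 0.00121), and in media the difference was -0.05 (adjusted p = 0.716). The call after Pam3 was lost with the 2 Pam3 groups fitted alone (0.0646) and with counts summed by identifier (0.0578). The interaction, the KO response to Pam3 less the WT response, was -0.28 (SE 0.0730, adjusted p = 0.0632), and without WT_Pam3 replicate 5 it passed at an adjusted p of 0.0283.

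Bphl, a serine hydrolase and the single call among 27 members of the metabolism list, had 4.10, 4.62 and 5.15 CPM in KO_Pam3 against 5.19, 5.41 and 6.04 CPM in WT_Pam3. All KO_Pam3 libraries were below all WT_Pam3 ones (log2 fold change -0.27, SE 0.0654, adjusted p = 0.0157). That call was lost with scaling to library size only (0.0584), without the low-count filter (0.109), with the 2 Pam3 groups fitted alone (0.115) and with counts summed by identifier (0.166). The interaction was -0.33 (SE 0.0825, adjusted p = 0.0538), and without WT_Pam3 replicate 5 it passed at 0.0354.

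Of 23 members with roles in lysosomes and membrane traffic, Tspan17 and Dtnbp1 were lower after Pam3. Tspan17, a tetraspanin that binds the protease ADAM10, had 21.1, 23.6 and 26.4 CPM in KO_Pam3 against 25.7, 27.1 and 40.9 CPM in WT_Pam3. Dtnbp1, dysbindin, a subunit of the BLOC-1 complex of lysosome-related organelles, had 51.2, 55.4 and 57.4 CPM against 52.2, 63.5 and 94.6 CPM. In both genes WT_Pam3 replicate 5 was the highest library, and the groups overlapped.

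With all libraries the log2 fold change was -0.32 for Tspan17 (SE 0.0828, adjusted p = 0.0227) and -0.30 for Dtnbp1 (SE 0.0837, adjusted p = 0.0399). Without WT_Pam3 replicate 5 they were -0.21 (adjusted p = 0.00860) and -0.18 (adjusted p = 0.0172). The call of Tspan17 was lost without KO_Pam3 replicate 2 or 3 (adjusted p 0.0573 and 0.0707). Dtnbp1 kept its call in 5 of 24 such fits, those without KO_Pam3 replicate 6 or WT_Pam3 replicates 1, 4, 5 or 6, and had an adjusted p of 0.0503 to 0.0993 in the other 19. Both calls were lost with scaling to library size only (0.0552 for Tspan17 and 0.0854 for Dtnbp1), without the low-count filter (0.0569 and 0.0759), with the 2 Pam3 groups fitted alone (0.190 and 0.260) and with counts summed by identifier (0.0738 and 0.0601).

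Aoah, acyloxyacyl hydrolase, which removes acyl chains from bacterial lipopolysaccharide, had 467, 488 and 495 CPM in KO_Pam3 against 509, 533 and 541 CPM in WT_Pam3. All KO_Pam3 libraries were below all WT_Pam3 ones, by -0.13 (SE 0.0368, adjusted p = 0.0449). That call was kept in the 3 fits without KO_Pam3 replicate 6 or WT_Pam3 replicates 5 or 6, and its adjusted p was 0.0545 to 0.124 in the other 21. It was also lost with DESeq2 size factors (0.0517), with scaling to library size only (0.216), without the low-count filter (0.445), with the 2 Pam3 groups fitted alone (0.113) and with counts summed by identifier (0.343). Macrophage marker sums were also lower in KO_Pam3, and their part in the difference was not tested.

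**Figure D4:**
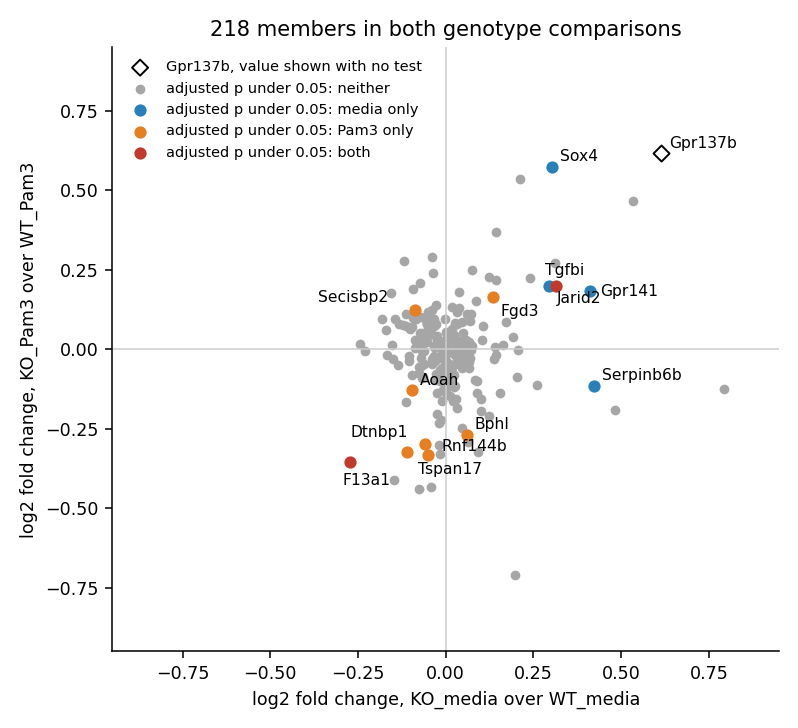
Log2 fold change of KO_Pam3 over WT_Pam3 (y axis) against that of KO_media over WT_media (x axis) for 218 members. Colours give the comparison in which a member passed the test, and the open diamond is Gpr137b. Tgfbi (0.32 and 0.20) and F13a1 (-0.27 and -0.35) are the red points, and most members lie within 0.2 of 0 on both axes.

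Genotype differences in the 2 treatments had little in common over the members as a whole. Their signs were the same for 106 of 218 members (48.6%), beside 48.2% of the 9767 genes under the same conditions genome-wide. Pearson's r across members was 0.21 and Spearman's rho -0.02, and without Gpr137b they were 0.14 and -0.03. Genome-wide the values were 0.24 and 0.03. In absolute log2 fold change, 200 of 218 members stayed under 0.2 in media and 186 after Pam3.

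Averaged over both treatments, 9 members were higher and 5 lower in KO, 14 of 218 or 6.42%, beside 4.97% of all tested genes (2.26% higher and 2.72% lower) and 5.98% under the same conditions genome-wide. Without Gpr137b 13 of 217 passed (5.99%), and with scaling to library size only the split was 12 higher and 3 lower. Of these, 4 passed in neither treatment alone and were named after their values were seen. They are Nid1, given above, Carmil1, a regulator of actin capping (0.23, adjusted p = 0.0408), Iars, an aminoacyl-tRNA synthetase (0.12, adjusted p = 0.0475), and 4833439L19Rik (-0.09, adjusted p = 0.0488). Iars lies 0.49 Mb from Ninj1. Without WT_Pam3 replicate 5 the count over both treatments was 28 (12.8%), beside 1893 of 14566 tested genes. It was 9 without KO_Pam3 replicate 3, KO_media replicate 4 or 6 or WT_Pam3 replicate 4.

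The lists of RNA processing and translation genes (27 of 29 symbols matched a member) and of cell cycle, DNA repair and death genes (22 of 26) held 1 and 0 calls over both genotype comparisons. The 1 was Secisbp2, which encodes the binding protein needed to read UGA as selenocysteine and lies 2.46 Mb from Ninj1 at chr13:51651697-51684044. Tut7 and Tent4a, listed under the older symbols Zcchc6 and Papd7, are members too but were left out of the list's counts. Neither passed a genotype comparison.

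Pam3 changed most of the members in both genotypes. In KO, 91 members were higher and 106 lower in KO_Pam3 than in KO_media, 197 of 218 or 90.4%, beside 85.0% of all tested genes (40.2% higher and 44.8% lower). In WT, 90 were higher and 106 lower in WT_Pam3 than in WT_media, 196 of 218 or 89.9%, beside 84.8% (40.6% higher and 44.2% lower). Under the same conditions genome-wide the shares were 89.1% in KO and 89.0% in WT, close to those of the members. Scaling to library size only shifted the median of all genes by -0.48 in KO and -0.52 in WT, and gave splits of 47 higher and 141 lower in KO and 44 higher and 147 lower in WT. In both genotypes 185 members passed, 84 higher in both, 101 lower in both and 0 in opposite directions. The groups did not overlap for 186 members in KO (87 higher and 99 lower), beside 75.7% of all tested genes (36.0% higher and 39.7% lower), and for 167 in WT (74 higher and 93 lower), beside 68.8% (32.5% higher and 36.4% lower). These were 85.3% and 76.6% of members, beside 84.0% and 75.5% of genes under the same conditions genome-wide.

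The largest rises among members were those of Edn1, Inhba, Ell2 and Trip13. Edn1 encodes the precursor of the vasoconstrictor peptide endothelin-1. It had 222, 239 and 266 CPM in KO_Pam3 against 0.0258, 0.227 and 0.318 CPM in KO_media, and 244, 265 and 284 CPM in WT_Pam3 against 0.0697, 0.102 and 0.218 CPM in WT_media. Media levels of Edn1 rest on few reads. The log2 rises were 10.16 in KO (SE 0.128) and 11.07 in WT (SE 0.136), and the interaction of -0.92 (SE 0.337) did not pass (adjusted p = 0.227).

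Inhba, the activin A subunit, rose by 4.29 in KO and 4.33 in WT on the log2 scale (SE 0.174 and 0.181). Ell2, a transcription elongation factor, rose by 3.49 and 3.36 (SE 0.0872 and 0.0867). Trip13, an ATPase of the spindle checkpoint, rose by 3.28 and 3.33 (SE 0.0732 and 0.0736). For all 3 the Pam3 libraries lay above every media library in both genotypes.

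Among the falls, Susd3 dropped to 0.871 to 1.31 CPM in KO_Pam3 against 89.1 to 101 CPM in KO_media, and to 0.976 to 1.27 CPM in WT_Pam3 against 84.0 to 90.4 CPM in WT_media. These were log2 changes of -6.44 (SE 0.0631) and -6.31 (SE 0.0638). Sox4 changed by -5.71 in KO and -5.98 in WT, Rnf144b by -4.89 in KO and -4.61 in WT, and Arrdc3, an alpha-arrestin, by -4.88 in KO and -5.28 in WT. Lrrc14b changed by -6.76 in KO and -5.85 in WT, but 98.3% of its stretches of 50 bases are shared with Ccdc127, which overlaps it, so its level is uncertain.

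Per gene length, the order of levels changed with treatment. Serpinb6a, an intracellular protease inhibitor, led the members in media, at a mean deposited RPKM of 355 in KO_media and 360 in WT_media. After Pam3 Syk, a tyrosine kinase of immune receptor signalling, led them at 444 RPKM in KO_Pam3 and 441 RPKM in WT_Pam3, with Aoah second at 137.4 and 150.4 RPKM.

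By list, Pam3 raised most members with roles in RNA processing and translation, 22 higher and 2 lower of 27 in KO. In WT 21 were higher and 1 lower, and the median log2 change was 0.50 in both genotypes. Tut7 and Tent4a were not among the 27. Members of the metabolism list went mostly the other way, with 9 higher and 17 lower of 27 in each genotype and medians of -0.54 in KO and -0.58 in WT. Myeloid and innate immunity genes had 8 higher and 16 lower of 25 in KO and 8 higher and 15 lower in WT, with medians of -0.36 and -0.39. The median over all tested genes was -0.07 in KO and -0.05 in WT. Scaling to library size only shifted it by -0.48 in KO and -0.52 in WT, about the size of the 0.50 above. The rises by list thus depend on the scaling.

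**Figure D5:**
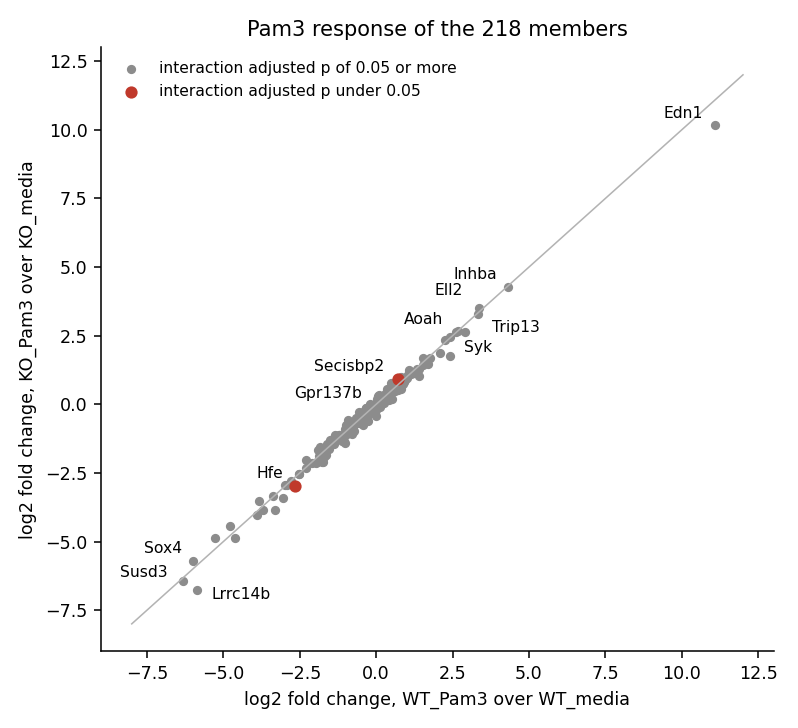
Log2 Pam3 response in KO (y axis) against that in WT (x axis) for 218 members, with the line of equal response. Red points passed the test of the difference between genotypes. They are Hfe, with a response of -2.96 in KO and -2.67 in WT, and Secisbp2, with 0.92 in KO and 0.70 in WT.

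The Pam3 response differed between genotypes by the test for 2 of 218 members (0.917%), 1 in each direction, beside 0.762% of all tested genes (0.173% higher and 0.589% lower) and 0.993% under the same conditions genome-wide. At an unadjusted p under 0.05 there were 33 (15.1%), beside 12.2% of all tested genes and 14.5% under the same conditions genome-wide. Secisbp2 had 41.8, 43.5 and 44.6 CPM in KO_Pam3 and 21.3, 23.0 and 24.5 CPM in KO_media. In WT it had 38.0, 40.3 and 40.6 CPM in WT_Pam3 and 23.5, 24.4 and 25.8 CPM in WT_media. The KO libraries were above the WT ones after Pam3 without overlap (log2 fold change 0.12, SE 0.0352, adjusted p = 0.0425), and the interaction was 0.21 (SE 0.0502, adjusted p = 0.0408).

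Hfe, a major histocompatibility class I-like protein that takes part in iron sensing, fell in both genotypes, to 11.0, 12.98 and 13.2 CPM in KO_Pam3 against 94.8, 98.4 and 102 CPM in KO_media, and to 12.95, 13.6 and 15.6 CPM in WT_Pam3 against 81.8, 87.6 and 94.7 CPM in WT_media. In media all KO_media libraries were above all WT_media ones, though the difference of 0.15 (SE 0.0440) did not pass (adjusted p = 0.0522). It passed without KO_Pam3 replicate 5, WT_Pam3 replicate 5 or WT_media replicate 2 (adjusted p 0.00298 to 0.0344). It also passed by the DESeq2 Wald test (0.00459), with the 2 media groups fitted alone (0.00814) and with scaling to library size only (0.0471). The interaction was -0.29 (SE 0.0675, adjusted p = 0.0365).

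Both interaction calls depended on the processing and on which library was left out. They ended without the low-count filter (adjusted p 0.188 for Hfe and 0.0974 for Secisbp2) and with counts summed by identifier (0.210 and 0.316), and that of Hfe with scaling to library size only (0.0935). The call of Secisbp2 after Pam3 ended without the low-count filter (0.0755), with the 2 Pam3 groups fitted alone (0.0930) and with counts summed by identifier (0.288). Hfe lost its call in 17 of 24 fits (adjusted p 0.0532 to 0.101) and kept it without KO_Pam3 replicates 1 or 6, WT_Pam3 replicates 1, 3, 5 or 6, or WT_media replicate 2. Secisbp2 lost its interaction call in 12 of 24, at an adjusted p of up to 0.0804, namely without KO_Pam3 replicates 2 to 6, WT_Pam3 replicates 1 to 4 or WT_media replicates 3 to 5. It lost its genotype call after Pam3 in 10 of 24 (adjusted p 0.0507 to 0.0992), without KO_Pam3 replicates 2 to 6 or WT_Pam3 replicates 1, 2, 3, 4 or 6. Without WT_Pam3 replicate 5, 8 members (3.67%) passed the interaction test, beside 3.73% of all tested genes, whereas 0 passed by edgeR without KO_Pam3 replicates 2, 3, 4 or 5, WT_Pam3 replicates 2 or 4, or WT_media replicates 3, 4 or 5. The count was 1 without KO_Pam3 replicate 6, KO_media replicates 2 to 6, WT_Pam3 replicate 3 or WT_media replicates 1 or 6.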

How the data were processed

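RNA was sequenced from 24 libraries as single-end reads of 50 bases from unstranded polyA libraries, per the labels' protocols. The aligner GSNAP and the build GRCm38 are named in the submitters' processing notes. The authors deposited unnormalized counts of reads aligning uniquely to each gene model, per the file headers, and RPKM values to which a size factor had been applied, as the headers name them. Deposited counts entered every test, and RPKM served only to order levels between genes. GENCODE M21 gave symbols, types and coordinates for 52489 of 52636 models.

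Counts were tested with edgeR 4.0.16 in R 4.3.3 (quasi-likelihood F-test, TMM scaling, filterByExpr by group, 1 coefficient for each group, 24 libraries fitted together). The filter left 14435 genes. The common biological coefficient of variation was 8.21%. P-values are two-sided and were adjusted by Benjamini-Hochberg over all tested genes within a comparison, and a gene passed at an adjusted p under 0.05. SE is the log2 fold change divided by the square root of F. It can be too small for large changes to or from few reads. CPM are counts over TMM-adjusted library sizes and compare groups, not genes. The fit was tested on simulated data. Stretches of 50 bases were compared between all GENCODE M21 transcripts in Python 3.11.15, and figures were drawn with matplotlib 3.10.9.

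Named genes were Ninj1, Gpr137b, the 3 members nearest to Ninj1 on each side, members passing in both genotype comparisons, the 10 with the smallest adjusted p in each of them, members passing the interaction, the 4 largest rises and 4 largest falls per Pam3 comparison without overlap, up to 4 passing members of each of 7 role lists, and the genes beside the count minimum. Members and lists were chosen with earlier results of these data known. Marker lists are those of macrophages, granulocytes and stromal cells above. Markers of lymphocytes summed to 1.22 to 2.50 CPM, of dendritic cells to 2.20 to 12.1 CPM, of mast cells to at most 0.230 CPM and of erythroid cells to at most 0.0985 CPM. Alternatives were other scalings, no filter, DESeq2 1.42.0, only the groups compared, counts summed by sample identifier, each library left out, other windows and other count minimums.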

Additional observations from a re-analysis of the deposited data

Results flagged for a closer look

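Among 27 named genes in 4 groups, 13 of 108 group checks held a library far from its 5 fellows by Dixon's test, where chance gives about 1 in 20. Of these, 9 were in WT_Pam3 replicate 5. Ninj1 stood there at 1145 CPM against 646 to 811 CPM in the other 5 WT_Pam3 libraries. Tspan17 was also high, at 40.9 CPM against 25.7 to 29.8 CPM, as was Dtnbp1 at 94.6 CPM against 52.2 to 66.5 CPM.

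The remaining 6 genes were low in WT_Pam3 replicate 5. Fam120a had 179 CPM there against 285 to 294 CPM in the others, Phf2 41.2 CPM against 60.5 to 65.7 CPM, and F13a1 26.6 CPM against 37.3 to 43.0 CPM. Jarid2 had 32.5 CPM against 41.8 to 45.9 CPM, Inhba 11.3 CPM against 22.9 to 26.1 CPM, and Ell2 308 CPM against 452 to 485 CPM.

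In other libraries, KO_Pam3 replicate 6 was high in Ninj1 (479 CPM against 409 to 433 CPM) and in Serpinb6b (0.907 CPM against 0.301 to 0.522 CPM). KO_media replicate 1 was high in Aoah (84.3 CPM against 73.8 to 76.6 CPM), and KO_Pam3 replicate 5 was low in Hfe (11.0 CPM against 12.4 to 13.2 CPM). The Pam3 response differed between KO and WT by the interaction test for Hfe (-0.29) and Secisbp2 (0.21).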

How the results depend on the processing

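No paired analysis was possible because the labels give no replicate number shared between groups. Fitting only the groups compared gave 20 members passing in media (9.17%, beside 7.97% of all genes tested there), 1 after Pam3 (0.459%, beside 1.36%) and 1 in both. DESeq2 gave 18 after Pam3 (8.26%, beside 6.12%), 4 in the interaction and 5 in both comparisons. Without the low-count filter 5 passed after Pam3 (2.29%, beside 1.33%) and 0 in the interaction by edgeR, with 30 members at an unadjusted p under 0.05. Counts summed by sample identifier, chosen after seeing the data, gave 5 in media, 1 after Pam3, 0 in the interaction, 1 in both and 8 over both treatments, from 2 sums a group and 16618 tested genes. With scaling to library size only, 1 passed the interaction.

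A window of 20 Mb held 139 members, of which 4 passed in media, 1 in the interaction, 125 with Pam3 in KO, 122 with Pam3 in WT and 8 over both treatments. A window of 10 Mb held 86, of which 2 passed in media, 6 after Pam3, 1 in the interaction, 76 with Pam3 in KO, 73 with Pam3 in WT, 7 over both treatments and 1 in both comparisons. Within 10 Mb, 6 of 86 after Pam3 and 7 of 86 over both treatments were larger shares than 10 and 14 of all 218 members. In media 2 of 86 was a smaller share than 7 of 218, as was 4 of 139 within 20 Mb. Over both treatments 8 of 139 was a smaller share than 14 of 218. Gpr137b counts among the 218 but lies outside both windows. The counts are small, and these shares were not tested against each other. Over all tested genes, 3.03% passed in media, 4.06% after Pam3 and 4.97% over both treatments. Shares by distance are given above. Without the exclusions by symbol, an alternative chosen after seeing the data, 16 of 256 genes passed after Pam3. Ninj1 itself was among those that passed.

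Leaving out 1 library each gave 5 to 24 members in media, 4 to 21 after Pam3, 1 to 5 in both, 0 to 8 in the interaction, 9 to 28 over both treatments, 194 to 201 with Pam3 in KO and 189 to 208 with Pam3 in WT. The high ends of the first 5 were all without WT_Pam3 replicate 5, and the cause of its separate position was not tested.

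Signs turned only for differences near 0 that never passed the test. Ptpdc1 in media was 0.01 with scaling to library size only and 0.00 with counts summed by identifier. With 1 library left out, Ptpdc1 ran from -0.07 to 0.05 in media and from -0.08 to 0.08 after Pam3, and Card19 from -0.03 to 0.01 in media. After Pam3, Susd3 ran from -0.05 to 0.06, Fam120a from -0.04 to 0.08, Phf2 from -0.01 to 0.11, Serpinb6b from -0.39 to 0.01 and Trip13 from -0.01 to 0.03. Ninj1 stayed between -0.91 and -0.85 in media and between -0.97 and -0.79 after Pam3. Depth limits genes such as Serpinb6b and Sox4 after Pam3, which were below 1 CPM.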

Other observations

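In some or all groups, the levels of 3 genes followed the order of the sample identifiers in the titles. Capn11, on another chromosome, showed this in all 4 groups. It had 9 to 14 counts in the 3 lower and 31 to 40 in the 3 upper identifiers of KO_Pam3, and 42 to 49 and 189 to 236 counts in those of KO_media. In WT_Pam3 it had 0 counts in all 3 lower and 3 to 4 in the upper identifiers, and in WT_media 0 and 10 to 17 counts.

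Mndal, an interferon-inducible gene with near-identical relatives, did so in WT but not in KO. It stood at 192.0 to 210.5 CPM in the lower and 188.6 to 195.9 CPM in the upper identifiers of KO_Pam3, and at 73.5 to 146.7 and 77.1 to 93.8 CPM in those of KO_media. In WT_Pam3 it had 126.8 to 132.8 and 58.8 to 65.4 CPM, and in WT_media 43.0 to 48.5 and 24.1 to 30.9 CPM.

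Gpr137b-ps likewise overlapped within KO, at 42.9 to 46.5 and 43.2 to 49.4 CPM in KO_Pam3 and 44.5 to 48.2 and 44.5 to 47.9 CPM in KO_media. In WT_Pam3 it had 52.4 to 54.8 CPM in the lower and 43.4 to 45.9 CPM in the upper identifiers, and in WT_media 45.2 to 48.3 and 36.9 to 41.3 CPM. The 3 genes were picked after their values were seen, the labels do not say what the identifiers mark, and no test was made between these libraries. Gpr137b itself overlapped between lower and upper identifiers in KO_media, WT_Pam3 and WT_media. In KO_Pam3 it had 86.0 to 87.4 CPM in the lower and 79.8 to 85.4 CPM in the upper ones.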
